A study of Mus musculus with 18 samples.

Results

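Heat shock and chaperone transcripts were followed in cultured mouse testes, with 10 genes taken by their NCBI gene numbers from a table of 22657 genes. The members were Hspa1l and Hspa4l, which are known for their expression in male germ cells, Hspa1a, Hspa1b, Hspb1, Dnajb1, Hsph1 and Hsp90aa1, which are induced by heat in most cells, Hspa8, the constitutive HSP70 of the cytosol, and Hspa5, the HSP70 of the endoplasmic reticulum (ER), also called BiP. All 10 genes were found and all 10 had at least 1 FPKM in at least 3 samples, so that none was left out of the tests. FPKM is the number of fragments scaled to transcript length and to the mapped fragments of the sample, so levels can be set side by side between genes.

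The 18 samples were testes of ICR mice, an outbred stock, in 6 groups of 3. A0, A10 and A50 came from mice of the same age without busulfan and were cultured for 48 h with 0, 10 or 50 µg/mL alginate oligosaccharides (AOS), sugar chains obtained from brown seaweed alginate. B0, BA10 and BA50 came from mice given busulfan, an alkylating drug that destroys dividing germ cells, once at 40 µg per g body weight and 3 weeks of age, and were kept in medium with the same 3 amounts of AOS. All testes were collected 2 weeks after the time of busulfan treatment. Every sample had been through the same culture and no uncultured testis is compared here. Changes that the culture itself brings can therefore not be seen, and whether they were equal in all groups was not tested. Each treatment held 6 testes and was repeated 3 times, but how the testes were divided among samples and whether samples came from separate mice is not given in the sources used here, so the p-values measure the spread between these samples, which may be partly technical.

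Heat shock proteins are chaperones, which bind unfolded proteins and keep them from aggregating. HSP70 proteins bind short stretches of unfolded chains, DNAJ proteins (HSP40) bring them substrates, HSP110 proteins exchange their nucleotide, HSP90 proteins mature kinases and receptors, and small heat shock proteins hold aggregates apart. The stress-inducible genes are switched on by heat shock factor 1 through heat shock elements in their promoters, the ER chaperones by the unfolded protein response, and germ cells carry further HSP70 and HSP110 genes that are switched on during meiosis and spermatid development without heat.

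The promoters of 5 members are shown because they carry or lack the letters of the stress elements by which these genes are usually sorted. Each is the 250 bases before the transcription start in RefSeq (GRCm38.p6), read 5′ to 3′ on the strand of the gene. Hspa1b (chr17:34959239-34959488, minus strand) and Hspa1a (chr17:34972157-34972406, minus strand) are the inducible pair, Hspb1 (chr5:135887669-135887918, plus strand) codes for the small chaperone HSP25, Hspa1l (chr17:34972453-34972702, plus strand) is the germ cell gene that starts next to Hspa1a, and Hspa5 (chr2:34771840-34772089, plus strand) is the ER gene. The capitals mark a heat shock element of 2 units (GAANNTTC or TTCNNGAA) in the first 3, a CCAAT box in Hspa1l, and the ER stress element (CCAAT and CCACG with 9 bases between them) in Hspa5.
Hspa1b: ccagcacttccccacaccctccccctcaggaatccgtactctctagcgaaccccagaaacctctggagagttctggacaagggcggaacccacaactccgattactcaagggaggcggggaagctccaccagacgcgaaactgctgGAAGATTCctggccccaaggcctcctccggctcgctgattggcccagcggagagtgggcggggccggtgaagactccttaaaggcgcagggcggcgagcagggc
Hspa1a: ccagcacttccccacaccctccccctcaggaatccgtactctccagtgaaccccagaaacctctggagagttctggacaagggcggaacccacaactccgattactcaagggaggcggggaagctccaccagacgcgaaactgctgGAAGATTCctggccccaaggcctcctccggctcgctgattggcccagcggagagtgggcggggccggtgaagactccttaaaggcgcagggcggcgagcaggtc
Hspb1: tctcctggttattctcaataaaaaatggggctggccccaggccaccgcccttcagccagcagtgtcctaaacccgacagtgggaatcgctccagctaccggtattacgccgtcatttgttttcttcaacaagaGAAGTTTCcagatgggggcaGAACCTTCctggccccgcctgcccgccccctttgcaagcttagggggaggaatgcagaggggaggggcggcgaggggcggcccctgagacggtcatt
Hspa1l: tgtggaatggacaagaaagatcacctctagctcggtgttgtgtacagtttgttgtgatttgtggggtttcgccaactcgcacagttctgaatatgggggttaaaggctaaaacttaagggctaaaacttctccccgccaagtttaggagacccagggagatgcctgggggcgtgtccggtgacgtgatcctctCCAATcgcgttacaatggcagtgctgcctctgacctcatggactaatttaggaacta
Hspa5: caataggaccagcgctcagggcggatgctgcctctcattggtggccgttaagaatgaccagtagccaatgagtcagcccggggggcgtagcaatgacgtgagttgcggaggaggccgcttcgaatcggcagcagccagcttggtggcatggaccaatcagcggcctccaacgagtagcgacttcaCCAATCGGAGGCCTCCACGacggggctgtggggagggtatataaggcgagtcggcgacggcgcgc

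Promoter windows of 300 bases, from 250 before to 50 after the start, were found for 8 of the 10 members. On either strand, the 2-unit heat shock element was present in 4 of the 8 (Hspa1a, Hspa1b, Hspb1 and Hsph1) and in 15.1% of all 32851 promoters. A 3-unit element (GAA and TTC units in alternation, with 2 bases between units), which contains a 2-unit one, was present in 1 of the 8, Hsph1, and in 0.603% of all promoters. The ER stress element was present in Hspa5 alone among the members and in 0.119% of all promoters, while the cAMP response element (TGACGTCA) was in 0 of the 8 members and in 1.79% of all promoters. CCAAT, which the ER stress element also contains, was present in 6 of the 8 members and in 37.4% of all promoters. Hspa1a and Hspa1b carried their element at position -104 and differed at 3 of the 250 bases. The Hspa1l and Hspa4l windows held none of the heat shock elements as spelled here, and neither did those of Dnajb1. These are matches of letters, and binding of a factor was not measured.

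Hspa1l, Hspa1a and Hspa1b lie in one cluster on chromosome 17 (GRCm38.p6). Hspa1l (chr17:34972703-34979228, plus strand) and Hspa1a (chr17:34969359-34972156, minus strand) point away from each other with 547 bases between their starts, and Hspa1b (chr17:34956429-34959238, minus strand) lies 10120 bases from Hspa1a. Of all stretches of 100 bases in the Hspa1a transcript (GENCODE, same build), 47.1% were also found in the Hspa1b transcript and 4.67% in the Hspa1l transcript. Of those in Hspa1l, 5.65% were found in Hspa1a, and between Hspa8 and these 3 genes the share was 0%. The division of reads between Hspa1a and Hspa1b is therefore uncertain, and their sum is given beside each of them.

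Over all 18 samples the mean level was highest for Hsp90aa1 at 508 ± 137 FPKM (SD, n = 18), then Hspa5 at 480.0 ± 185, Hspa8 at 398 ± 54.2, Hspb1 at 260.4 ± 57.6 and Hspa4l at 112 ± 35.5 FPKM. Lower levels were found for Dnajb1 at 60.3 ± 13.8, Hspa1l at 24.6 ± 12.4, Hsph1 at 23.5 ± 3.07, Hspa1b at 9.25 ± 10.4 and Hspa1a at 7.61 ± 15.4 FPKM. The order was the same in all 18 samples for Hspa8 above Hspb1, for Hspa4l above Dnajb1 and for Dnajb1 above Hspa1l. It was not settled for Hsp90aa1 and Hspa5 (Hsp90aa1 higher in 10 of 18) or for Hspa1l and Hsph1 (Hspa1l higher in 7 of 18). Hspa8 and Hsph1 varied least, with a highest level 1.57 and 1.71 times the lowest, compared to 28.04 times for Hspa1b.

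The samples had similar totals, with FPKM sums of 463970 to 511274 and 14291 to 15040 genes of at least 1 FPKM, and read depth is unknown. Listed markers of testicular cell types were present, from the germ line (Sycp3, Tnp1), the Sertoli cells (Sox9) and the Leydig cells (Star), and no listed marker was at 0 in all samples. A10 replicate 3 stood apart: its 10 listed Sertoli cell markers summed to 1103 FPKM, compared to 2820 and 2483 in the other 2 samples of the group. B0 replicate 1 had the highest sum of fat cell markers at 887 FPKM, compared to 207 and 280.1 in the other 2 samples of B0 and 42.5 to 138 in the other groups. Results that rest on A10 replicate 3 or B0 replicate 1 are given with and without them.

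**Figure D1:**
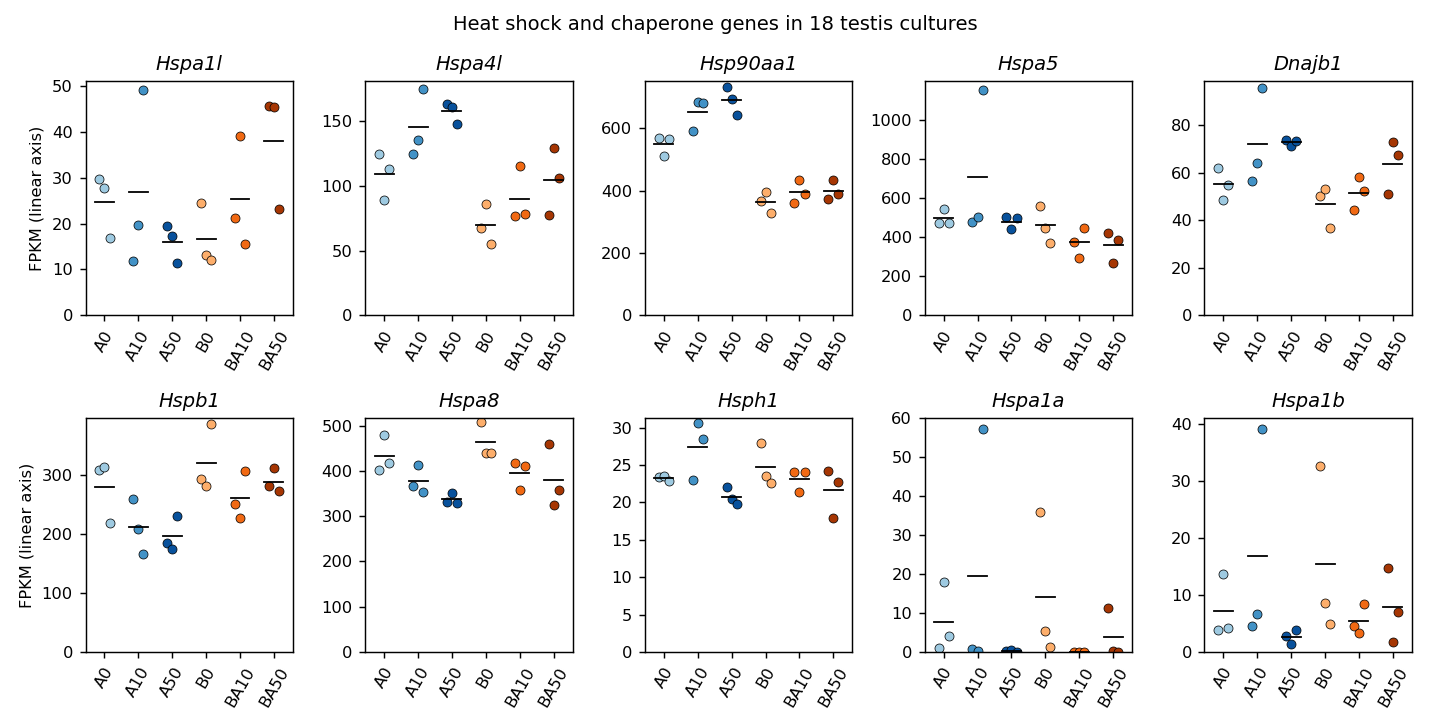
FPKM (linear axes from 0, one panel for each gene) of the 10 members in the 18 samples; points are samples, bars are means of 3, blue groups had no busulfan and orange groups had it. Hsp90aa1 is lower in every busulfan sample (329 to 435) than in every sample without busulfan (511 to 731), while Hspa1a and Hspa1b are high in single samples of 4 groups. The share of all genes separated as Hsp90aa1 is was not counted.

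The first question was how the testes of busulfan-treated mice differed. With the 3 busulfan groups set against the 3 groups without it, Hsp90aa1, Hspa4l, Hspa5 and Dnajb1 were lower and Hspb1 was higher, and the other 5 members were not called. Called means a Benjamini-Hochberg adjusted p under 0.05 over 15790 genes, from limma on log2(FPKM + 1), a scale that understates changes of genes with low values. The 5 of 10 members called compare to 38.1% of all genes, and the 4 called lower and 1 higher compare to 24.8% and 13.3% of all genes. The exact permutation test, adjusted over all genes, called the same 5 members and 39.2% of genes. With an adjusted p of at most 0.001 and a log2 change of at least 1, 0 members were called, compared to 3.61% of genes. The median log2 change of the members was -0.15, compared to 0.01 over all genes. In bulk tissue, fewer cells of a type and less RNA per cell cannot be told apart.

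Hsp90aa1, the inducible form of cytosolic HSP90 that is also abundant in spermatocytes, had the steadiest difference. It was at 569.9, 511 and 566 FPKM in A0, at 592, 683 and 679 in A10, and at 731, 693 and 644 in A50. It was at 367, 394 and 329 FPKM in B0, at 359.7, 435 and 387 in BA10, and at 373, 433 and 389.96 in BA50. The highest busulfan sample lay below the lowest sample without busulfan. The share of all genes separated in this way was not counted, while 16% did not overlap in one direction at each AOS level. The log2 change was -0.70 (SE 0.06, limma adjusted p = 3.67e-07), a level 0.614 times that without busulfan, and the exact two-sided permutation test within AOS levels gave p = 0.00025, the smallest it can give with 8000 arrangements. Hsp90ab1, the constitutive form, was at 422 to 554 FPKM without busulfan and at 430 to 569 with it, with a log2 change of 0.09 (SE 0.07, adjusted p = 0.277), and the difference between both forms was not tested.

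Hspa4l, an HSP110 relative most abundant in the testis, was at 125, 89.2 and 113 FPKM in A0, at 125, 135 and 175 in A10, and at 163, 161 and 148 in A50. With busulfan it was at 67.5, 85.6 and 55.0 in B0, at 76.2, 115 and 77.9 in BA10, and at 77.4, 129 and 106 in BA50. The groups did not overlap at any AOS level, as was so in one direction for 16.0% of all genes. The log2 change was -0.66 (SE 0.12, limma adjusted p = 0.000703; exact permutation p = 0.00025), a level 0.635 times that without busulfan. Hsph1, the inducible HSP110, was at 19.7 to 30.7 FPKM without busulfan and 17.9 to 27.96 with it, and the interval of its log2 change was -0.19 to 0.12 (adjusted p = 0.729).

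Hspa1l, the testis HSP70 of the chromosome 17 cluster, had no common direction. It was at 29.7, 27.8 and 16.8 FPKM in A0, at 11.8, 19.8 and 49.1 in A10, and at 19.4, 17.4 and 11.3 in A50. With busulfan it was at 24.4, 13.2 and 12.1 in B0, at 21.3, 39.0 and 15.6 in BA10, and at 45.5, 45.3 and 23.2 in BA50. The highest values, 39.0 to 49.1 FPKM, were found in A10 replicate 3, BA10 replicate 2 and BA50 replicates 1 and 2. The pooled log2 change was 0.21 (interval -0.36 to 0.78, adjusted p = 0.553). Across the 18 samples, Pearson's r between the log2 levels of Hspa1l and Hspa4l was 0.157, given as a description.

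Hspa5 was at 475, 545 and 471 FPKM in A0, at 475, 501 and 1154 in A10, and at 501.0, 440.4 and 499 in A50. With busulfan it was at 561, 448 and 372 in B0, at 376, 295 and 449 in BA10, and at 423, 267 and 387 in BA50. The A0 and B0 samples overlapped, while at both AOS concentrations the busulfan samples were lower. In BA50 compared to A50, 41.7% of all genes had no overlap in either direction, and the share for BA10 compared to A10 is not given here. The log2 change was -0.46 (SE 0.16, limma adjusted p = 0.0381; exact permutation p = 0.006). Without A10 replicate 3, whose level was 2.36 times the mean of the other 2 samples of its group, the change was -0.33 (adjusted p = 0.0363). Its call was lost when any of 10 of the 18 samples was left out, with the highest adjusted p (0.0766) without B0 replicate 3, and without a filter (adjusted p = 0.0556).

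Dnajb1, the HSP40 partner of the inducible HSP70, was at 62.1, 48.4 and 54.7 FPKM in A0, at 56.6, 64.1 and 95.6 in A10, and at 73.8, 71.1 and 73.2 in A50. With busulfan it was at 50.03, 53.2 and 36.8 in B0, at 44.4, 58.1 and 52.1 in BA10, and at 50.9, 72.9 and 67.4 in BA50. Samples with and without busulfan overlapped at each AOS level, and the log2 change was -0.30 (SE 0.11, adjusted p = 0.0461; exact permutation p = 0.0122). Its call was lost when any of 12 of the 18 samples was left out, A10 replicate 3 (-0.23, adjusted p = 0.0725) and B0 replicate 1 (-0.32, adjusted p = 0.0513) among them.

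Hspb1, a small heat shock protein that also binds actin filaments, was the member that rose. It was at 309, 314 and 218 FPKM in A0, at 260.3, 209 and 167 in A10, and at 186, 175 and 231 in A50. With busulfan it was at 294, 282 and 387 in B0, at 251, 228 and 308 in BA10, and at 282, 312 and 274 in BA50. The BA50 samples were all above the A50 samples, a comparison in which 41.7% of all genes did not overlap in either direction, and the other 2 pairs overlapped. The log2 change was 0.36 (SE 0.11, limma adjusted p = 0.0189; exact permutation p = 0.0095), a level 1.28 times that without busulfan, and was 0.38 without B0 replicate 1 and 0.30 without A10 replicate 3. Markers of fat cells moved with busulfan in the same direction (7 of 7 tested called higher, compared to 13.3% of all genes). They summed to 42.5 to 84.9 FPKM without busulfan and 68.0 to 887 with it. Within AOS levels these 7 were called in B0 compared to A0 alone, with median changes of 2.56 in B0, 0.56 in BA10 and 0.33 in BA50. Of 5 endothelial markers 3 were called higher and 0 lower, and 0 were called within any single AOS level. The endothelial markers summed to 31.7 to 59.4 FPKM without busulfan and 27.0 to 77.9 with it. Of the Sertoli cell markers 2 of 9 and of the Leydig cell markers 1 of 6 were called higher, with 0 lower and medians of 0.31 and 0.34. No marker was called of peritubular and smooth muscle (6 tested, median 0.04), macrophages and leukocytes (7, -0.01) or erythrocytes (3, -0.09). Of 5 markers of simple epithelium, 3 were called higher and 1 lower, but their sums were above those without busulfan in B0 alone (79.4 to 203, compared to 25.4 to 46.6 in A0), and were at 17.01 to 28.1 FPKM in BA10 and 20.2 to 28.9 in BA50, compared to 29.0 to 33.7 in A10 and 33.4 to 36.9 in A50. Hspb1 itself had a log2 change of 0.20 in B0, 0.32 in BA10 and 0.56 in BA50, each compared to the group with the same AOS and no busulfan. The part of these cell types in the Hspb1 change was not tested.

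Hspa8 was at 328 to 479 FPKM without busulfan and at 324 to 508 with it, and the interval of its log2 change was -0.05 to 0.26 (adjusted p = 0.259). For Hspa1a and Hspa1b the intervals were wide, -1.95 to 1.41 and -0.74 to 1.26, and the values within groups differed widely. Their log2 changes of -0.27 and 0.26 became 0.32 and 0.55 without A10 replicate 3 and -0.63 and 0.02 without B0 replicate 1, and none of these values was called.

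**Figure D2:**
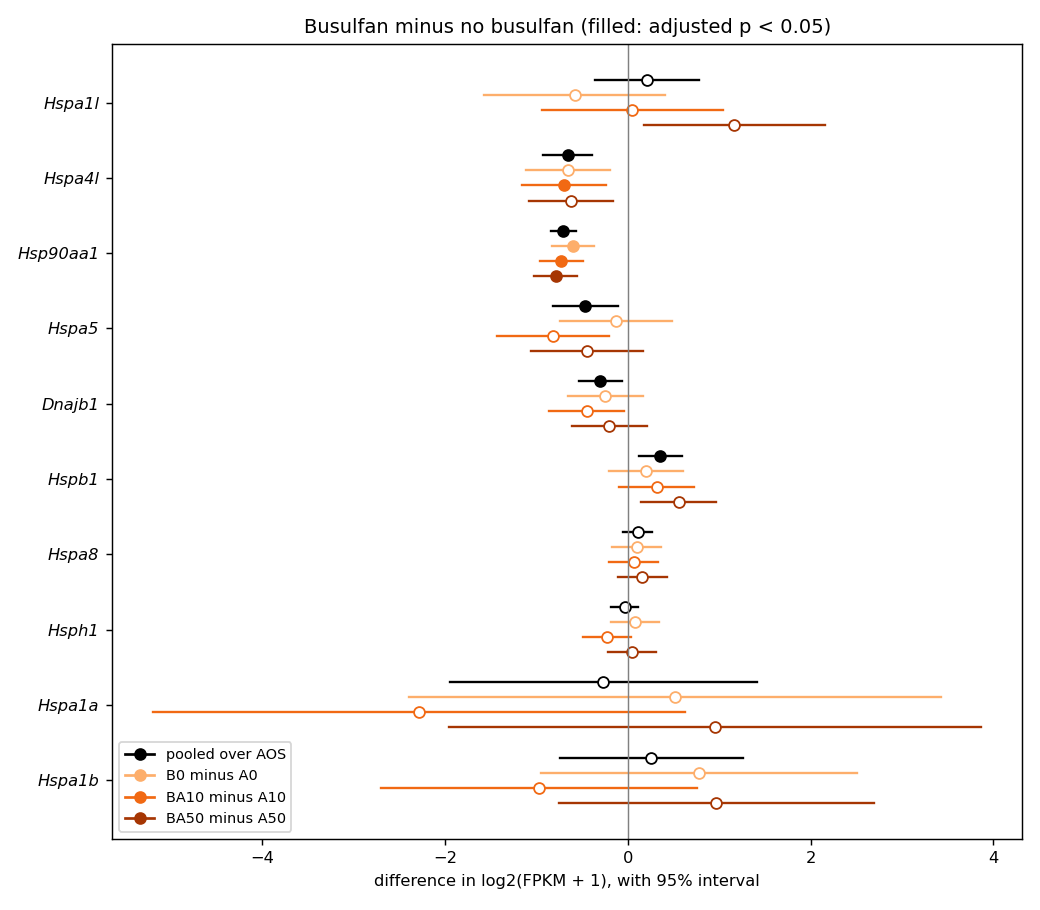
Difference in log2(FPKM + 1) between busulfan and no busulfan for the 10 members (horizontal axis), pooled over AOS levels (black) and at each AOS level (orange shades); lines are 95% intervals and filled points have an adjusted p under 0.05. Hsp90aa1 is filled in all 4 comparisons (-0.60 to -0.79), and the intervals of Hspa1a and Hspa1b span 0 throughout.

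Within single AOS levels, fewer members were called. Hsp90aa1 was the 1 member called lower in B0 compared to A0, at -0.60 (adjusted p = 0.00144), where 13.8% of all genes were called. In BA10 compared to A10, 2 members were called, Hsp90aa1 at -0.73 (adjusted p = 0.000220) and Hspa4l at -0.70 (adjusted p = 0.0355), with 18.9% of all genes called. In BA50 compared to A50, Hsp90aa1 was again the 1 member called, at -0.79 (adjusted p = 8.38e-05), with 19.9% of all genes called. Hspa4l had values of the same size in B0 compared to A0 (-0.65, adjusted p = 0.0601) and BA50 compared to A50 (-0.62, adjusted p = 0.0582) without passing the limit. With an adjusted p of at most 0.001 and a log2 change of at least 1, 0 members were called in these 3 comparisons, where 2.54%, 3.01% and 3.39% of all genes were. Exact permutation tests of 3 against 3 samples cannot go below p = 0.1.

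Hspa1l was higher in every BA50 sample than in every A50 sample, as 41.7% of all genes had no overlap there in either direction, with a log2 change of 1.17 (SE 0.46, adjusted p = 0.0951), and had -0.58 in B0 compared to A0 (adjusted p = 0.517). The difference between these changes was 1.74 (SE 0.66, unadjusted p = 0.0182, adjusted p = 0.688). It did not pass the test, and by limma no gene did for either AOS concentration, with unadjusted p under 0.05 for 3.97% of genes at 10 µg/mL and 6.28% at 50 µg/mL.

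The stress-inducible HSP70 pair was high in single samples of 4 groups. The sum of Hspa1a and Hspa1b was 96.6 FPKM in A10 replicate 3, 68.6 in B0 replicate 1, 31.7 in A0 replicate 2 and 26.2 in BA50 replicate 1, compared to 2.02 to 14.1 in the other 14 samples. Hspa1a alone was at 1.02, 17.97 and 4.05 FPKM in A0, at 0.79, 0.23 and 57.3 in A10, at 0.38, 0.63 and 0 in A50, and at 35.98, 5.37 and 1.40 in B0. It was listed at 0, 0 and 0.12 FPKM in BA10 and at 11.4, 0.33 and 0 in BA50. The libraries with high levels came from testes with and without busulfan and with and without AOS.

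Hspa1b was at 3.88, 13.7 and 4.27 FPKM in A0, at 4.53, 6.64 and 39.3 in A10, and at 2.86, 1.40 and 3.91 in A50. With busulfan it was at 32.6, 8.69 and 4.89 in B0, at 4.58, 3.29 and 8.44 in BA10, and at 14.8, 1.69 and 7.09 in BA50. Hspa1b was thus high in the same 4 samples as Hspa1a, with which it shares reads, and was above 0 in the samples that list Hspa1a at 0.

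The 6 markers of peritubular and smooth muscle cells, which surround the tubules and vessels, summed to 478, 499, 367 and 332 FPKM in these 4 samples, in the order above. The sums in the other 14 samples were 197 to 422 FPKM, and BA10 replicate 3 (422), B0 replicate 3 (359) and BA50 replicate 3 (341) were above BA50 replicate 1, so that the list did not single out the 4 samples. Serpinh1, a collagen chaperone under heat shock control, was at 187, 232 and 202 FPKM in A0 replicate 2, B0 replicate 1 and BA50 replicate 1, at 125 in A10 replicate 3, and at 70.5 to 136 in the others. Whether tissue composition or handling of these samples plays a part was not tested. Other stress genes were followed in the same 4 samples. Hsph1 was at 28.5 FPKM in A10 replicate 3, at 27.96 in B0 replicate 1, at 23.5 in A0 replicate 2 and at 24.2 in BA50 replicate 1, and was the highest of its group in the last 3. Hspa5 was the highest of its group in all 4, at 1154, 561, 545 and 423 FPKM in the order above, but ranked 13 of the 18 samples in BA50 replicate 1. Of the 15 genes of the stress-induced list described below other than the pair, 1 was the highest of its group in all 4 samples (Serpinh1). In 3 of them 6 genes were, Bag3 and the constitutive Hspa8 among these, 3 were in 2, 3 were in 1, and 2 were in 0, Hsp90aa1 and Hspb8. As 1 of 3 samples in a group is always the highest and the share over all genes was not counted, these counts are a description only. Over the 18 samples, which share each library's scaling, Pearson's r of the log2 levels of Hspa1b was 0.738 with Hsph1 and 0.687 with Hspa5, and r of their deviations from the group means was 0.681 and 0.917, given as a description. In A10 replicate 3 Hspa1b was 7.03 times and Hspa5 2.36 times the mean of the other 2 samples of the group. These r values were not computed without that sample.

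**Figure D3:**
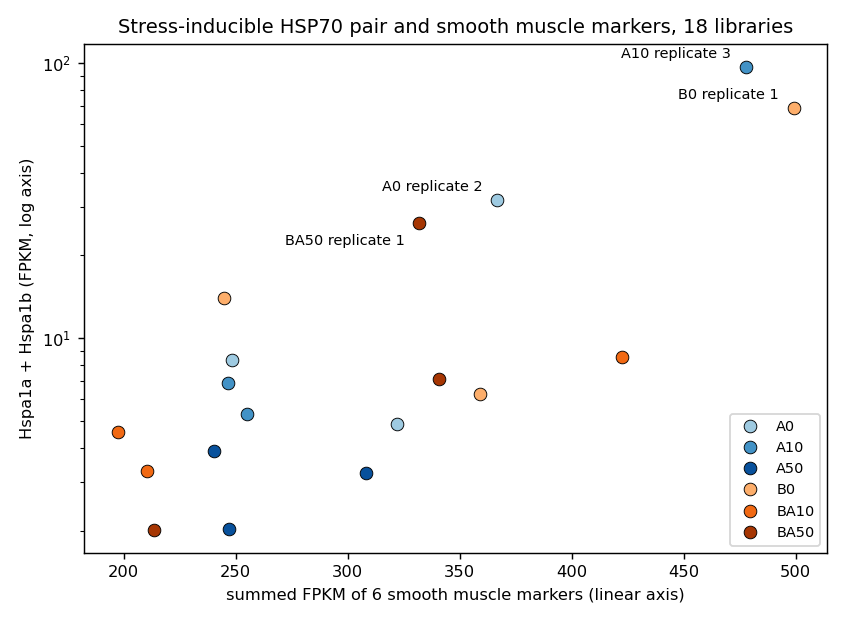
Sum of Hspa1a and Hspa1b (FPKM, log axis) against the summed FPKM of 6 smooth muscle markers (linear axis) in the 18 libraries; each point is a library, coloured by group. The 4 named libraries, with sums of 26.2 to 96.6 FPKM, lie at marker sums of 332 to 499 FPKM, and the other 14, with 2.02 to 14.1 FPKM of the pair, at 197 to 422, so the ranges overlap.

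A10 replicate 3 was also the sample with the highest level of Hspa1l, Hspa4l, Dnajb1 and Hspa5 as well as of Hspa1a and Hspa1b. Its Hspa5 level came with Hsp90b1, the HSP90 of the ER, at 703 FPKM (228 to 447 in the other 17 samples) and with Ddit3, a transcription factor of the unfolded protein response, at 119.8 FPKM (49.4 to 81.5 in the others). The sample was low in Sertoli cell markers, as given above, and its part in these levels was not tested.

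The second question was whether AOS changed these genes. In A10 compared to A0 and in A50 compared to A0, 0 of the 10 members and 0% of all genes were called by limma, with an unadjusted p under 0.05 for 2 and 4 members and for 15.2% and 15.6% of all genes. In BA10 compared to B0 and BA50 compared to B0, 0 members were called, with 0.0253% and 0.095% of all genes called and an unadjusted p under 0.05 for 1 and 4 members and for 5.05% and 24.3% of all genes. With both backgrounds pooled, AOS at 10 µg/mL gave 0 called members and 0% of all genes (unadjusted p under 0.05 for 4 members and 16.8% of genes), and AOS at 50 µg/mL gave 2 called members, Hspa4l higher and Hspa8 lower, with 7.86% of all genes called, 5.7% higher and 2.16% lower.

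Hspa4l had a pooled log2 change of 0.56 with 50 µg/mL AOS (SE 0.15, limma adjusted p = 0.0452), a level 1.47 times that without AOS. The 3 A50 samples (148 to 163 FPKM) were above the 3 A0 samples (89.2 to 125), a comparison in which 40.8% of all genes did not overlap, while the BA50 samples (77.4 to 129) and B0 samples (55.0 to 85.6) overlapped. Hspa8 had a change of -0.33 (SE 0.09, adjusted p = 0.0449), with A50 samples (328 to 352 FPKM) below A0 samples (402 to 479) and an overlap of BA50 (324 to 458) with B0 (439.95 to 508). Both calls sat at the limit: the exact permutation tests, which cannot go below p = 0.005 here, gave p = 0.01 and 0.015, with adjusted p of 0.0587 and 0.0691 over all genes and 0 genes called. Each was lost when any 1 of 12 of the 18 samples was left out, B0 replicate 1 among them (Hspa4l 0.55, adjusted p = 0.0750; Hspa8 -0.29, adjusted p = 0.0828). Without A10 replicate 3, which enters this comparison only through the shared spread and the set of genes tested, 4 members were called and the share of all genes called went up from 7.86% to 21.2%, and the 2 added members were Hsp90aa1 (0.23, adjusted p = 0.0455) and Dnajb1 (0.42, adjusted p = 0.0244).

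For the other members the pooled changes at 50 µg/mL did not pass the limit. Dnajb1 had 0.42 (adjusted p = 0.0627), Hsp90aa1 0.23 (adjusted p = 0.0673), Hspb1 -0.32 (adjusted p = 0.119) and Hsph1 -0.17 (adjusted p = 0.169). Hspa1a had -1.92 and Hspa1b -0.92, with intervals of -3.98 to 0.14 and -2.15 to 0.30. Levels of fat cell and simple epithelium markers were lower with 50 µg/mL AOS pooled (5 of 7 and 4 of 5 called, compared to 2.16% of all genes) and were highest in B0. Their median changes were -2.57 and -2.84 in BA50 compared to B0, but -0.20 and 0.06 with 0 called in A50 compared to A0. The part of these cell types in the member values was not tested.

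**Figure D4:**
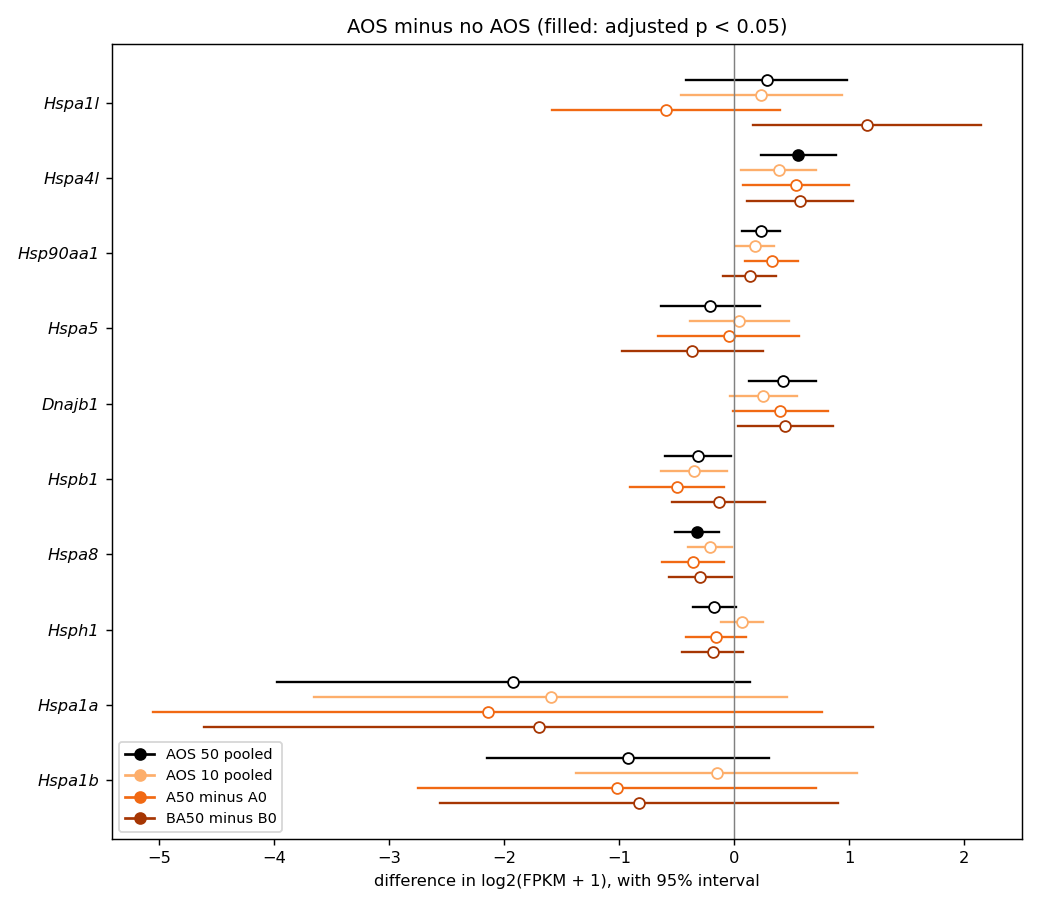
Difference in log2(FPKM + 1) between AOS and no AOS for the 10 members (horizontal axis): 50 µg/mL (black) and 10 µg/mL (light orange) pooled over busulfan, and 50 µg/mL without (orange) and with busulfan (brown); lines are 95% intervals and filled points have an adjusted p under 0.05. The filled points are pooled Hspa4l (0.56) and Hspa8 (-0.33).

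The wider chaperone families, listed with earlier results of these data known, were described by counts in the same fit, and the lists include the members. Of 17 germ cell chaperones, 8 were called lower and 0 higher with busulfan (47.1%, compared to 38.1% of all genes), with a median of -0.17. The 3 with the largest fall were Fkbp6, an immunophilin needed for meiosis and the piRNA pathway (-3.16, from 19.6 to 28.1 FPKM down to 1.33 to 2.2), Clgn, an ER chaperone for sperm membrane proteins (-1.04), and Spag1, which helps assemble dynein arms (-0.97). Hspa2, the meiotic HSP70, had -0.85 (SE 0.14, adjusted p = 0.000218). Spermatocyte markers moved in the same direction: 9 of 10 were called lower, and their summed level was 342 to 484 FPKM without busulfan and 47.5 to 99.6 with it. Among 9 tested spermatogonium markers, 6 were called lower and 0 higher, with a median of -1.30. Of the 10 spermatid markers, 0 were called lower and 1 higher, with sums of 2516 to 5161 FPKM without busulfan and 2424 to 11295 with it. The part of cell composition in these counts was not tested.

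The other lists are read against the same shares of all genes, 24.8% called lower and 13.3% higher. Of 17 stress-induced cytosolic chaperones, 5 were called lower (29.4%) and 3 higher (17.6%) with busulfan, with a median of 0.02. The rises were Hspb8 (0.57), which with its partner Bag3 (0.19) steers damaged proteins to autophagy, and Hspb1. The 3 largest falls were Hsp90aa1, Fkbp4, an HSP90 cochaperone of steroid receptors (-0.35), and Dnajb1. Of 16 constitutive cytosolic chaperones, 11 were called lower (68.8%) and 0 higher, with a median of -0.21 and the largest falls in Tcp1 (-0.54) and Cct3 (-0.49), subunits of the chaperonin that folds tubulin and actin, and in Ptges3, the HSP90 cochaperone p23 (-0.45).

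Of 20 genes of ER folding and the unfolded protein response, 10 were called lower (50.0%) and 0 higher, with a median of -0.21, and the largest falls were in Sdf2l1 (-0.86) and Hyou1 (-0.78), both partners of BiP, and in Hspa5. Of 8 mitochondrial chaperones, 2 were called higher (25%), the proteases Lonp1 (0.26) and Clpp (0.23), and 0 lower. Of 6 heat shock factors and their regulators, 3 were called lower (50.0%): Hsf5, a factor of meiotic cells (-1.15), Hsbp1, a negative regulator of heat shock factor 1 (-0.44), and Hsf1 itself (-0.26). Of 10 immediate early genes, which respond to tissue handling, 1 was called higher (10.0%, below the share of all genes), Ier3 (2.13), and 0 lower. The Ier3 call rested on BA50 compared to A50 (5.48, with 0.85 to 2.59 FPKM in A50 and 85.5 to 148 in BA50), while its change was 0.60 in B0 compared to A0 and 0.30 in BA10 compared to A10.

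Without A10 replicate 3 the busulfan counts were 2 higher and 8 lower for the germ cell list, 3 and 4 for the stress-induced list, 0 and 12 for the constitutive list, 0 and 8 for the ER list, 3 and 0 for the mitochondrial list, 0 and 3 for the heat shock factors and 3 and 0 for the immediate early genes, with 40.7% of all genes called. Without B0 replicate 1 they were, in the same order, 0 and 8, 3 and 3, 0 and 11, 0 and 10, 1 and 0, 0 and 3 and 1 and 0, with 35.2% of all genes called.

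With 50 µg/mL AOS, 5 of 17 germ cell chaperones were called higher and 0 lower (29.4%, compared to 7.86% of all genes), with a median of 0.57, compared to -0.06 over all genes. The 3 largest rises were Hspb9, a testis small heat shock protein (0.74, adjusted p = 0.0485), Hspa2 (0.70) and Clgn (0.69). Markers of spermatocytes and spermatids moved in the same direction. Of 10 spermatocyte markers 4 were called higher and 0 lower, with a median of 0.33. Of 10 spermatid markers 1 was called higher, with a median of 0.60. An unadjusted p under 0.05 was found for 7 of them, compared to 5304 of all 15790 genes. Of 9 tested spermatogonium markers 0 were called, with a median of 0.08 and changes from -0.49 to 0.40. The part of cell composition in these values was not tested. Of the stress-induced list 0 genes were called higher by limma and 1 was called lower, Hspa8, which is constitutive in most cells and was placed in this list. An unadjusted p under 0.05 was found for 6 of the 17, near the share of all genes just given. Of the constitutive chaperones, Tcp1 (0.46) and Cct3 (0.22) were called higher, and of the heat shock factors and their regulators, Hsf5 (0.64) and Hsbp1 (0.37). Of the immediate early genes Egr1 was called lower (-0.74). Without B0 replicate 1 no list of chaperones, heat shock factors or immediate early genes had a called gene, with 0.0191% of all genes called. Without A10 replicate 3, 21.2% of all genes were called, and the counts were 10 of 17 higher for the germ cell list, 3 higher and 3 lower for the stress-induced list, 3 and 0 for the constitutive list, 1 and 1 for the ER list, 0 and 0 for the mitochondrial list, 2 and 0 for the heat shock factors and 0 and 6 for the immediate early genes.

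**Figure D5:**
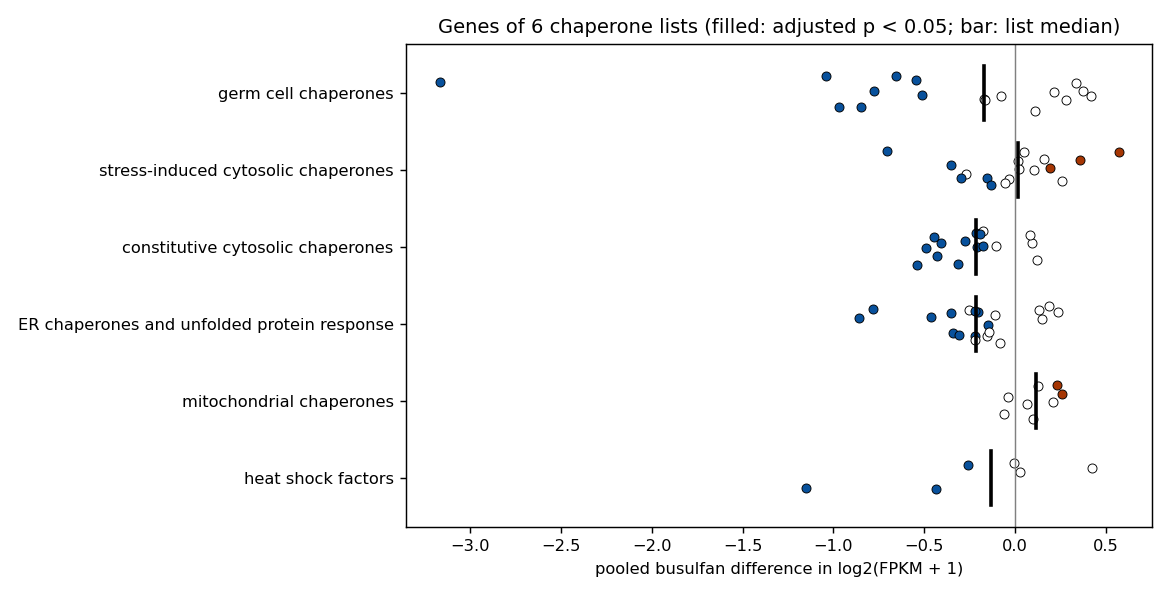
Pooled busulfan difference in log2(FPKM + 1) (horizontal axis) of each gene in 6 chaperone lists; points are genes, filled where the adjusted p is under 0.05, and bars are list medians. The medians are -0.17, 0.02, -0.21, -0.21, 0.11 and -0.13 from top to bottom, and the germ cell gene at the far left is Fkbp6 (-3.16).

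The genes most like 3 members were taken by Pearson's r of log2(FPKM + 1) over the 18 samples among 14929 genes, as a description, in which differences between groups and between single libraries both enter. Hspa4l was most like Brdt, a testis bromodomain protein (r = 0.994), Pias2 (0.993), Agtpbp1 (0.993), Srpk1 (0.992) and Hspa2 (0.991), and 935 genes (6.26%) had r of at least 0.9 with it. Hspa1l was most like Vars, a valyl-tRNA synthetase (0.946), Bag1, an HSP70 nucleotide exchange factor (0.902), Klf5 (0.895), Mllt11 (0.882) and Ly6g6c (0.876), and 2 genes (0.0134%) had r of at least 0.9. Hspa1b was most like Hspb2, a small heat shock protein of muscle (0.958), Mcub (0.953), H2-Q6 (0.941), Tmem39a (0.933) and H2-Q10 (0.931), and 10 genes (0.0670%) had r of at least 0.9.

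Some of these genes were neighbours of the members on chromosome 17, a point examined after their names were seen. Vars starts 28 kb and Ly6g6c 94 kb from Hspa1l, and both were among the 50 genes most like it, while 0.510% of the 14107 genes with a known position lie within 1 Mb of it. H2-Q6, H2-Q10, H2-Q4 and H2-Q2, class I histocompatibility genes 385 to 513 kb from Hspa1b, were among the 50 genes most like Hspa1b, and 0.496% of genes lie within 1 Mb. For the 7 members outside the cluster, 0 of the 50 most alike genes lay within 1 Mb, where 0.0567% (Hspa8) to 0.248% (Hspb1) of genes lie. With so few genes that near, the 0 is no contrast to the cluster. H2-Q6 was at 10.6, 9.77, 4.28 and 5.64 FPKM in A10 replicate 3, B0 replicate 1, A0 replicate 2 and BA50 replicate 1, the samples with high Hspa1a and Hspa1b, and at 0.29 to 2.71 in the other 14. Vars was at 31.3 FPKM in A10 replicate 3, at 29.95 in BA10 replicate 2, and at 36.9 and 33.8 in BA50 replicates 1 and 2, the 4 samples with the most Hspa1l, and at 15.7 to 30.5 in the other 14, with A0 replicate 2 inside the range of those 4.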

How the data were processed

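The table covers 18 cultured testis samples, and the labels put 3 in each of 6 groups. The authors made poly(A) libraries, read them on a HiSeq sequencer and deposited FPKM values to 2 decimals for 22657 genes. The submitters' processing notes name HISAT, Bowtie2, RSEM and GRCm38.p5, while the supplementary methods name SOAPaligner and RPKM, so how reads shared by Hspa1a and Hspa1b were counted is not settled. The series' design text gives AOS per body weight, and the labels' µg/mL was used. Read depth is unknown: ratios between samples lay near whole-number fractions for 16.3% of values in 484 low genes and for 16.8% in genes of at least 20 FPKM, so reads could not be recovered, and precision was judged from the 3 samples of a group.

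Gene numbers were matched to symbols (20656 of 20811; 1846 further gene models carry no number). Genes that reached 1 FPKM in 3 or more samples (15790) were tested on log2(FPKM + 1) with limma 3.58.1 in R 4.3.3 (trend, 12 residual and 2.56 prior degrees of freedom), with 1 coefficient for each group. Busulfan was compared at each AOS level and pooled over them, AOS within and pooled over busulfan, and their interactions tested, 12 comparisons in all. P-values were adjusted by Benjamini-Hochberg over all genes tested, and exact two-sided permutation tests (8000, 400 or 20 arrangements) shuffled labels within AOS or busulfan levels. The fit was tested on simulated data. Members and lists were chosen with earlier results of these data known. Genes named beyond the members were up to 3 called genes of each list with the largest rise and 3 with the largest fall, pooled over AOS or in AOS comparisons with calls, and the 5 genes most like Hspa1l, Hspa4l and Hspa1b; Hsp90ab1, Serpinh1, Hsp90b1, Ddit3 and the neighbours H2-Q4 and H2-Q2 were chosen after their values were seen.

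The processing was varied by adding the replicate block, fitting the compared groups alone, lowering the pseudocount to 0.1, dropping the filter or asking for a mean of at least 5 FPKM, quantile normalization, leaving out the trend, limits of adjusted p at most 0.001 and log2 change at least 1, and leaving out each sample. A block fitted on BA50 and B0 alone, and list counts without A10 replicate 3 or B0 replicate 1, were added after seeing the data. Protein identity between members was not run, because no protein table was used here. Python 3.11.15 was used with SciPy 1.17.1, NumPy 2.4.6, matplotlib 3.10.9 and pandas 2.3.3.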

Additional observations from a re-analysis of the deposited data

How the results depend on the processing

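Hsp90aa1 and Hspa4l kept their call and direction in the pooled busulfan comparison under all 24 alternatives in fit, filter, scale or samples (-0.77 to -0.68 and -0.72 to -0.59). The Hspb1 call was lost with quantile normalization (0.30, adjusted p = 0.0618), the Hspa5 call without a filter (-0.46, adjusted p = 0.0556) and when any of 10 samples was left out, and the Dnajb1 call without a filter (-0.30, adjusted p = 0.0586). The cause was not tested.

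In the pooled busulfan comparison 3 members were called without a filter (28.9% of all genes), and 3 to 5 with a sample left out (33.6% to 40.7% of all genes; 3 without A0 replicate 1 or 3, A50 replicate 1 or 3, B0 replicate 3 or BA10 replicate 1). In B0 compared to A0, 2 were called with quantile normalization (12.6% of all genes), and 1 to 2 with a sample left out (9.17% to 17.3%; 2 without A0 replicate 2, A10 replicate 3, B0 replicate 2, BA10 replicate 2, or BA50 replicate 1 or 2). In BA10 compared to A10, 1 was called in a fit of only those groups (7.11% of all genes), and 1 to 4 with a sample left out (13.1% to 23.5%; 4 without A10 replicate 1, 1 without A10 replicate 3, BA10 replicate 1 or BA10 replicate 3). In BA50 compared to A50, 3 were called in a fit of only those groups (17.8% of all genes), 2 with a mean of at least 5 FPKM (22.1%), 2 with quantile normalization (20.4%), and 1 to 4 with a sample left out (14.5% to 26.0%; 4 without A10 replicate 3; 2 without A0 replicate 3, A10 replicate 1, A50 replicate 3, B0 replicate 3, BA10 replicate 2 or BA50 replicate 2). In BA50 compared to B0, 0 to 1 were called with a sample left out (1 without BA50 replicate 1, with 7.12% of all genes). For 50 µg/mL AOS pooled, 0 were called without a filter (3.04% of all genes), and 0 to 4 with a sample left out (4 without A10 replicate 3 or BA50 replicate 1, with 21.2% and 22.7% of all genes, and 0, with 0% to 3.54%, without A0 replicate 2 or 3, A10 replicate 2, any A50 replicate, B0 replicate 1 or 3, BA10 replicate 1 or 3, or BA50 replicate 2 or 3). With an adjusted p of at most 0.001 and a log2 change of at least 1, 0 members were called in every comparison, and 3.61% of all genes in the pooled busulfan comparison.

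In the 3 pooled comparisons, the ones in which the sign of each member was followed, signs changed only in values that were not called. Quantile normalization gave Hsph1 a pooled busulfan change of 0.029. With a sample left out, the pooled busulfan change ranged from -0.65 to 0.32 for Hspa1a (above 0 without A0 replicate 2, A10 replicate 3 or B0 replicate 3) and from -0.0725 to 0.0069 for Hsph1. For 10 µg/mL AOS pooled it ranged from -0.035 to 0.458 for Hspa1l (below 0 without A10 replicate 3), from -0.59 to 0.21 for Hspa1b and from -0.162 to 0.158 for Hspa5 (below 0 without A10 replicate 3, B0 replicate 3 or BA10 replicate 3).

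The labels give groups the same replicate numbers, but 16 of 45 same-number pairs of samples had deviations with r above 0.1 (range -0.66 to 0.67) and 6 of 18 samples were most like one of their own number. With the replicate block, 4 members were called in the pooled busulfan comparison (Dnajb1 was not, adjusted p = 0.0588) and 0 members and 0 genes with 50 µg/mL AOS pooled. All 3 pairs had r above 0.1 for BA10 with BA50 (0.35, 0.67 and 0.44), groups not compared with each other, and for B0 with BA50 (0.56, 0.42 and 0.14), where the block fitted on both groups called 0 members, as did the fit without it. With unknown depth, counting error of low values such as Hspa1a cannot be given.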
